A study of Mus musculus with 4 samples.

Results

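Genes of the contractile machinery that marks myofibroblasts, 10 in all, were followed in mouse embryonic fibroblasts (MEF cells) exposed to genistein, a soy isoflavone best known as a blocker of tyrosine kinases. They were taken by symbol from the 47937 gene rows of the deposited count table, by a rule that uses no measured value. The choice of genes was made with earlier results of these data known. All 10 symbols (Acta2, Actg2, Tagln, Tagln2, Cnn1, Cnn2, Myl9, Tpm1, Tpm2 and Vcl) matched 1 row each, and 9 of them passed the filter on low counts. Myl9 did not.

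Total RNA was sequenced from untreated MEF cells, labelled wild-type, and from MEF cells kept in 50 µM genistein for 24 h, whose genotype label names only the treatment. There were 2 libraries in each group. Both groups grew in the same serum-containing medium. The sample titles call the untreated cells control MEF, and the labels do not say whether these received the solvent. For other assays the paper describes its untreated cells as given the solvent DMSO alone. The labels also do not say whether the replicates came from separate cultures, so that p-values measure only the spread between these libraries. Libraries held 28591958 to 31464284 counts.

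Fibroblasts turn into myofibroblasts when they build stress fibres, bundles of actin filaments crosslinked and pulled together by myosin and anchored at focal adhesions. The smooth muscle forms of actin, transgelin, calponin, tropomyosin and myosin light chain are then switched on. Many of these genes are targets of serum response factor (SRF), which binds CArG boxes in their promoters together with the myocardin-related coactivators MRTF-A and MRTF-B. These coactivators are held in the cytoplasm by monomeric actin and are released when RhoA drives actin into filaments. Promoters of the same genes often also hold sites for TEAD proteins, the DNA-binding partners of the coactivators YAP and TAZ.

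The start-site windows show where these elements lie in the contractile genes. A RefSeq promoter sequence on GRCm38.p6, from 250 bases before to 50 bases after the start site, was matched for 8 of the 10 genes. Tagln and Actg2 had no entry. A CArG box, in which 2 C bases and 2 G bases flank a core of 6 A or T bases, was found in the windows of Cnn2, Myl9 and Vcl, which is 3 of 8 windows against 1.63% of 32851 mouse windows. A form with 1 core base changed to G or C was found in Acta2 and Myl9, against 8.5% of all windows. The TEAD motif, searched as CATTCC on both strands, was found in Acta2, Tagln2, Tpm1 and Vcl, against 14.7% of all windows. The CArG pattern is its own reverse complement, and no CArG match of these genes overlapped a TEAD motif. A match describes letters in a window and not a bound site. The CArG matches, printed because they are the elements shared between these genes, are shown on the strand of the gene from 5′ to 3′ with the box in capitals.
Acta2, chr19:34255438-34255467, box 84 bases before the start site: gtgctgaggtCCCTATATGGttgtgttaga
Acta2, chr19:34255388-34255417, box 34 bases before the start site: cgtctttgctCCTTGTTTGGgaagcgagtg
Cnn2, chr10:79988534-79988563, box 56 bases before the start site: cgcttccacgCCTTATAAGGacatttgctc
Vcl, chr14:20929161-20929190, box 227 bases before the start site: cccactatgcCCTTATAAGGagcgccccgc
Myl9, chr2:156775293-156775322, box 161 bases before the start site: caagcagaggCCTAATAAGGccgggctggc
Myl9, chr2:156775355-156775384, box 99 bases before the start site: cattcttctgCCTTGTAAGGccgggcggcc

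Acta2 and Myl9 thus held 2 matches each, and the box of Cnn2 has the same letters as that of Vcl. Both matches of Acta2, and the Myl9 match 99 bases before the start site, have the changed core base. The Acta2 gene model of GENCODE M21 starts upstream of the RefSeq start site, so that both of its matches fall in an annotated exon there. The boxes of Cnn2, Vcl and Myl9 lay outside their gene models. The TEAD motifs are shown because the 4 genes that hold them moved in different directions, and their capitals mark CATTCC or its reverse complement. Distances are again to the RefSeq start site. In GENCODE M21 the motifs of Acta2, Tagln2 and Tpm1 fall in annotated exons, and that of Vcl lies outside its gene model.
Acta2, chr19:34255502-34255531, motif 146 bases before the start site: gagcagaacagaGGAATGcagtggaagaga
Tagln2, chr1:172500116-172500145, motif 118 bases before the start site: tcctttacggctCATTCCtgcctactgacc
Tagln2, chr1:172500154-172500183, motif 80 bases before the start site: taagcgctccagCATTCCacgcggcggcgc
Tpm1, chr9:67049252-67049281, motif 56 bases before the start site: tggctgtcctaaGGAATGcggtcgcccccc
Vcl, chr14:20929243-20929272, motif 143 bases before the start site: gcccctcccttgGGAATGggggcggggcgg

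With genistein the contractile genes moved in 2 directions. Acta2, Tagln, Tpm2 and Vcl rose, Tagln2, Cnn2 and Tpm1 fell, and Actg2 and Cnn1 did not pass the test. Of the 9 tested genes, 4 were higher and 3 lower at an adjusted p under 0.05 (edgeR, adjusted over all genes and repeats by Benjamini-Hochberg). This is to be read against all 16240 tested genes, of which 33.5% were higher and 38.2% lower by the same rule. In either direction 0 of the 9 passed the full thresholds of the study with edgeR, and 0 with DESeq2, while 4 higher and 3 lower had an unadjusted edgeR p under 0.05. The full thresholds add a log2 fold change beyond 1 in size, and normalised counts that average over 100. Across all genes 3.92% were higher and 4.16% lower past them. The median log2 fold change (genistein minus untreated, log2 change from here on) was -0.13 over the 9 genes and -0.03 over all genes. The absolute log2 change had a median of 0.44 over all genes, and of the tested contractile genes only Tagln and Tagln2 exceeded it. In a bulk sample, fewer cells that express a gene and less of its RNA per cell cannot be told apart.

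**Figure D1:**
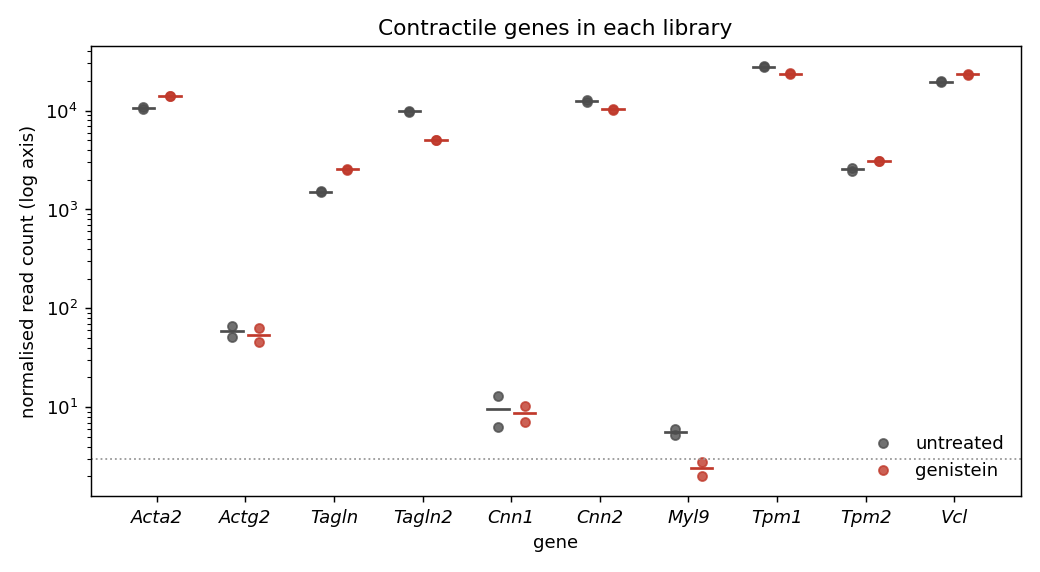
Normalised read counts (log axis) of the 10 contractile genes in the 2 untreated and 2 genistein libraries, with 1 point per library, a short line at each group mean and a dotted line at a normalised count of 3. Libraries of the 2 groups overlap only for Actg2 and Cnn1, and Cnn1 and Myl9 stay under 13 in every library.

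Both genistein libraries lay above both untreated libraries for 4 of the 10 genes, and below them for 4, Myl9 included. Among all tested genes 40.7% lay above and 44.6% below in this way.

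Acta2 encodes α-smooth muscle actin, the usual marker of the myofibroblast, and lies on chromosome 19 (34241090 to 34255590, minus strand, GRCm38). A normalised read count is the count scaled to the mean effective library size. For Acta2 it was 10787 and 10440 without genistein, against 13936 and 14087 with it. The groups were separate, and the gap between them was larger than the spread within either. The log2 change was 0.40 ± 0.05 (SE), a 1.32-fold rise (adjusted p = 7.2e-07, edgeR).

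Actg2 encodes γ-smooth muscle actin of visceral smooth muscle (chromosome 6, 83512905 to 83536265, minus strand). Its normalised counts were 66.9 and 50.8 without genistein, against 45.9 and 62.8 with it. The groups overlapped. The log2 change of -0.13 ± 0.21 did not pass the test (adjusted p = 0.60, edgeR), and it turned positive, to 0.08 and 0.09, with untreated 1 or genistein 1 left out. The longest stretch without a mismatch shared by Acta2 and Actg2 transcripts was 29 bases, and the longest shared by Acta2 with Actb and Actg1 was 47 and 56 bases.

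Tagln and Tagln2, which encode the actin-binding proteins transgelin (SM22α) and transgelin-2, moved in opposite directions. Tagln lies on chromosome 9 (45929619 to 45936058, minus strand) and had normalised counts of 1511 and 1523 without genistein, against 2516 and 2563 with it. It had the largest rise among the 9 tested contractile genes, with a log2 change of 0.74 ± 0.04 (1.67-fold, adjusted p = 6.0e-11, edgeR). Of all tested genes, 84.4% had a smaller log2 change. On the opposite strand, exons of Pcsk7 cover 108 bases of Tagln exons and those of an antisense transcript 1241, and the strand setting of the counting was not stated. Pcsk7 had 679 and 671 raw counts without genistein, against 697 and 667 with it. The antisense transcript has no entry among the deposited counts, so its level could not be compared.

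Tagln2, the form made in many cell types, lies on chromosome 1 (172500047 to 172507380, plus strand). Its normalised count was 9909.6 and 9758 without genistein, against 5019.5 and 5020.5 with it. It was the gene with the largest fall among those tested here, and its genistein libraries were nearly equal. The log2 change was -0.97 ± 0.04, just short of the study's fold threshold (adjusted p = 1.3e-12, edgeR). Only 7.11% of tested genes had a smaller value.

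The ratio of Tagln to Tagln2 within a library does not depend on how libraries are scaled. It was 0.153 and 0.156 without genistein, against 0.501 and 0.510 with it, so that it rose 3.28-fold. The log2 ratio went from -2.70 ± 0.02 to -0.98 ± 0.02 (SD, n = 2; exact two-sided permutation p = 0.333). With 2 libraries against 2 this is the smallest p that the test allows. Counts of transgelin genes moved with it, as Tagln took 13.2% and 13.5% of them without genistein, against 33.4% and 33.8% with it. The transcripts of Tagln and Tagln2 shared at most 15 bases in a row.

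Calponins bind actin and slow the myosin ATPase. Cnn1, the smooth muscle form (chromosome 9, 22099216 to 22109630), was near the limit of detection, with raw counts of 13 and 6 without genistein, against 11 and 7 with it. The groups overlapped, and the log2 change of -0.15 ± 0.48 did not pass the test (adjusted p = 0.78, edgeR). Its value was 0.45 with untreated 1 left out and 0.08 with genistein 2 left out. No change in Cnn1 was detectable at this depth.

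Cnn2, the form made in non-muscle cells (chromosome 10, 79988584 to 79996062), was abundant. Its normalised count was 12688 and 12246 without genistein, against 10251 and 10495 with it, and the groups did not overlap. The log2 change was -0.27 ± 0.05 (adjusted p = 6.4e-05, edgeR). Cnn2, whose CArG box has the same letters as that of Vcl, fell while Vcl rose. The part of the box in these changes was not tested. The ratio of Cnn1 to Cnn2 overlapped between the groups (difference of 0.18 in the log2 ratio, exact permutation p = 1).

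Myl9, the regulatory myosin light chain of smooth muscle (chromosome 2, 156775420 to 156781658), had raw counts of 6 and 5 without genistein, against 3 and 2 with it. These counts lay below the filter and near the 3 counts taken as the floor, and the gene was not tested. Its window held 1 CArG box and 1 match with a changed core base, whereas both matches of Acta2 had a changed core base. The light chain genes Myl12a and Myl12b and the essential light chain Myl6, which non-muscle cells use, were expressed at mean normalised counts of 11202, 1683 and 8577 in untreated cells. Of these Myl12b and Myl6 rose, with log2 changes of 0.84 ± 0.04 and 0.14 ± 0.04 (adjusted p = 1.3e-11 and 0.0078, edgeR). Myl12a, the most abundant of them, fell, with a log2 change of -0.37 ± 0.04 (adjusted p = 1.1e-06, edgeR).

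Tropomyosins lie along the actin filament and control access of myosin to it. Tpm1 lies on chromosome 9 (67022590 to 67049406, minus strand) and gave the highest counts of the 10 genes. Its normalised count was 28027 and 27773 without genistein, against 23279 and 23850 with it. It fell, with a log2 change of -0.24 ± 0.05 (adjusted p = 0.00015, edgeR). Tpm2, β-tropomyosin (chromosome 4, 43514711 to 43523765, minus strand), had normalised counts of 2626 and 2474 without genistein, against 3121 and 3106 with it. It rose, with a log2 change of 0.29 ± 0.04 (1.22-fold, adjusted p = 4.4e-06, edgeR). Both genes give several isoforms by alternative exons, which a count per gene does not separate.

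The ratio of Tpm1 to Tpm2 was 10.7 and 11.2 without genistein, against 7.46 and 7.68 with it. Its log2 value differed by -0.53 between the groups (exact permutation p = 0.333, the smallest possible). The ratio of Acta2 to Actg2, 161 and 205 without genistein, against 303 and 224 with it, was separate between the groups too (exact permutation p = 0.333), but its low Actg2 counts make it imprecise. Of the 4 ratios compared, 3 had this p, and adjusted over the 4 it was 0.444.

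Vcl encodes vinculin, which links actin filaments to the adhesion complex (chromosome 14, 20929398 to 21033676, plus strand). Its normalised count was 19525 and 19816 without genistein, against 23150 and 23631 with it. The groups were separate, and the log2 change was 0.25 ± 0.05 (1.19-fold, adjusted p = 0.00013, edgeR). Exons of Ap3m1 on the opposite strand share 2090 bases with those of Vcl. Ap3m1 had 2070 and 1919 raw counts without genistein, against 1858 and 1710 with it.

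**Figure D2:**
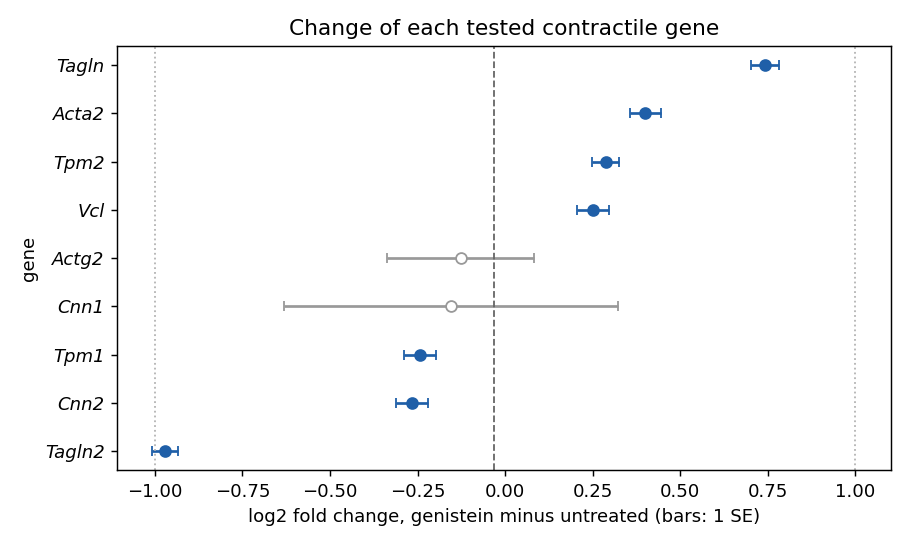
Log2 change (genistein minus untreated, bars 1 SE) of the 9 tested contractile genes. Filled points passed an adjusted p under 0.05, open points did not. The dashed line is the median of all tested genes (-0.03) and dotted lines mark the fold threshold of 1. Tagln at 0.74 and Tagln2 at -0.97 are the outermost points.

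Levels were compared between genes per kb of annotated exon. In untreated cells Cnn2, Acta2, Tagln2 and Tpm1 stood at the top, with mean levels of 5068, 4833, 4723 and 4302 normalised counts per kb. Vcl followed at 2401, then Tpm2 at 877 and Tagln at 763. Actg2 was at 37.8, and Myl9 and Cnn1 at 4.86 and 3.53. The libraries of Acta2 overlapped those of Tagln2 in this order, and those of Myl9 overlapped those of Cnn1. No other neighbours overlapped.

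With genistein Acta2 became the highest of the 10 per kb of exon, at 6380, and Tagln2 went from rank 3 to rank 5, at 2411. Tagln, at 1277, moved past Tpm2, at 1070. The top of the order depends on the length used, because the exons of Tpm1 span 6485 bases and its longest coding transcript 2890. Per kb of the longest coding transcript, a scale chosen after seeing the data, Tpm1 was highest in both groups, at 9654 and 8154. Acta2 was then in the third place in untreated cells and second with genistein.

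The changes were also read as shares of the counts of each gene family within a library, which are free of scaling between libraries. Acta2 took 4.06% and 4.10% of the counts of the 6 actin genes without genistein, against 8.14% and 8.11% with it. The share of Acta2 thus grew by more than its normalised count, while the cytoplasmic actins fell. Actb, β-actin, had a log2 change of -0.69 ± 0.03 (adjusted p = 2.9e-11, edgeR) and Actg1, γ-actin, of -0.53 ± 0.04 (adjusted p = 1.6e-08, edgeR). Acta1, skeletal muscle actin, and Actc1, cardiac actin, took at most 0.0170% of the actin counts, and Actc1 had no count in any library.

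Tpm2 took 4.65% and 4.45% of tropomyosin counts without genistein, against 7.15% and 6.91% with it. Tpm1, although its normalised count fell, took a larger share with genistein, 53.3% and 53.0% against 49.6% and 49.95%. Tpm3 fell more than Tpm1, with a log2 change of -0.75 ± 0.03 (adjusted p = 1.0e-11, edgeR). Cnn2 took 63.6% and 62.9% of calponin counts without genistein, against 61.0% and 60.5% with it.

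**Figure D3:**
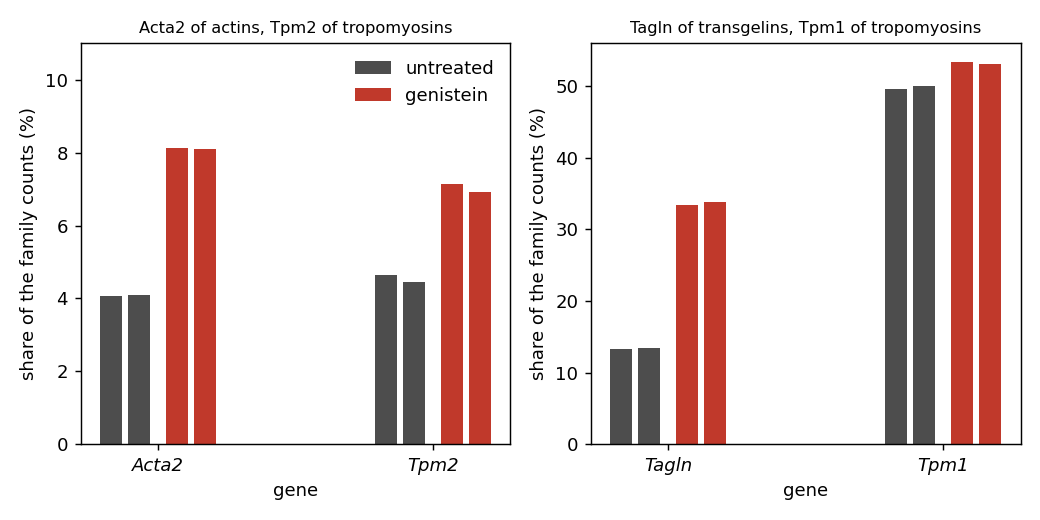
Share (%) of the counts of a gene family taken by Acta2 (of 6 actins), Tpm2 and Tpm1 (of 4 tropomyosins) and Tagln (of 3 transgelins), with 1 bar per library. Tagln goes from 13.2% and 13.5% to 33.4% and 33.8%, and Acta2 from about 4.1% to 8.1%.

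Other genes of the contractile pathway were compared as 8 lists of 105 genes. Over all lists, 33 of 100 tested genes were higher and 47 lower at an adjusted p under 0.05 (edgeR), against 33.5% and 38.2% of all tested genes, so that the share of higher genes was that of the background. With library totals as the scale, 38 were higher and 37 lower, against 37.5% and 34.1% of all genes. The count of each list below is to be read against the same shares. Among the smooth muscle contractile genes 7 of the 9 tested were higher and 1 lower, beside 33.5% and 38.2% of all genes, and their median log2 change was 0.48. Des, the intermediate filament protein desmin, rose from 33.3 ± 5.17 to 274 ± 13.4 normalised counts (n = 2, SD), a log2 change of 3.03 ± 0.15 (adjusted p = 2.6e-11, edgeR). Fhl1, a LIM domain protein of muscle, had a log2 change of 1.27, and Cald1, which encodes the actin-binding caldesmon, of 0.48. Nexn, the filament-binding nexilin, was the gene that fell (-0.76). Mylk, the kinase that activates myosin light chains, differed by 0.09 ± 0.05 (adjusted p = 0.14, edgeR).

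The smooth muscle myosin heavy chain Myh11 had 3 raw counts or fewer in every library, and Myocd, the master coactivator of the smooth muscle lineage, had 1 count in 1 library. Of the 5 smooth muscle lineage markers, Smtn, Lmod1 and Des were tested and all 3 were higher, beside 33.5% of all genes. These 3 were already counted in the smooth muscle contractile list. The summed normalised counts of the 5 markers lay from 1619 to 1684 without genistein and from 2139 to 2301 with genistein. Most of both sums was Smtn, with means of 1597 without genistein and 1851 with it (log2 change 0.21). Pericyte markers, summed over 5 genes, lay from 144 to 162 and from 2375 to 2701, nearly all of it Notch3. The pericyte markers Cspg4, Kcnj8 and Abcc9 had 3 raw counts or fewer in every library. The part of smooth muscle cells or pericytes in the rise of Acta2 and Tagln was not tested.

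Non-muscle actin, tropomyosin and myosin genes had 4 of 13 tested genes higher and 7 lower (median -0.11), beside 33.5% and 38.2% of all genes. With library totals as the scale the balance turned, to 6 higher and 5 lower. Actn4, which crosslinks actin filaments, was higher by 0.17 on the log2 scale. Genes of focal adhesions and stress fibres had 7 of 20 higher and 10 lower (median -0.11). Palld (palladin), Lpp and Pdlim5, which all bind actin bundles or α-actinin, had log2 changes of 0.91, 0.73 and 0.58. Vasp, which promotes actin filament growth, Ilk, integrin-linked kinase, and Zyx, zyxin, had values of -0.64, -0.44 and -0.39. With library totals as the scale, 6 genes of this list were lower in place of 10. Vcl rose where Zyx, another marker of focal adhesions, fell.

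**Figure D4:**
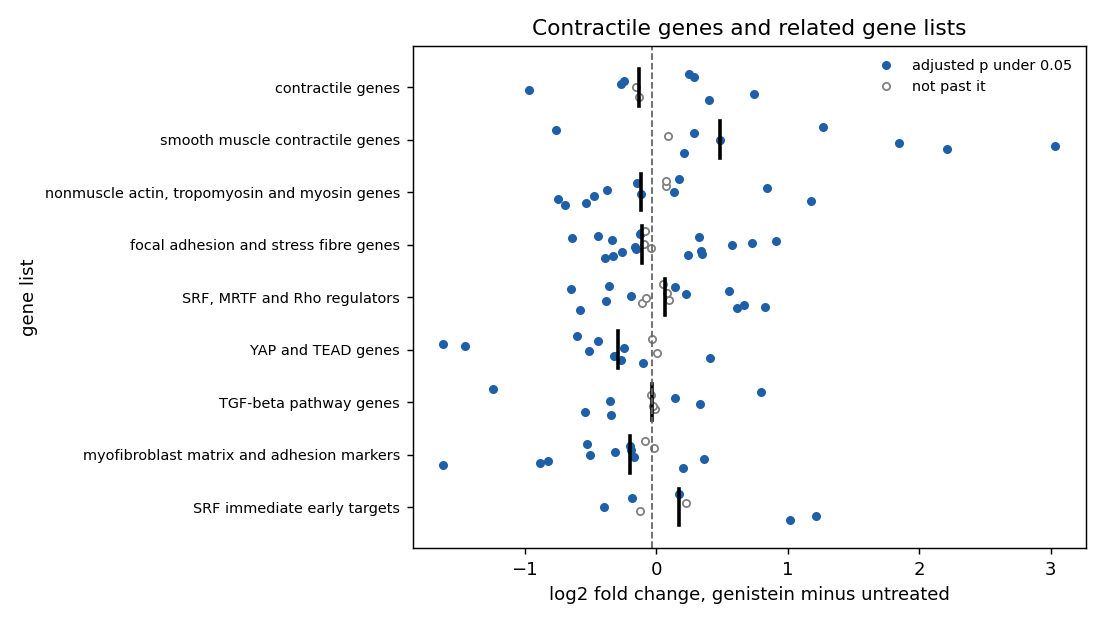
Log2 change (genistein minus untreated) of each tested gene in the contractile set and in the 8 related lists. Filled points passed an adjusted p under 0.05, black bars are list medians and the dashed line is the median of all tested genes. The smooth muscle contractile genes have the highest median (0.48) and the YAP and TEAD genes the lowest (-0.29).

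Among the regulators, the SRF gene itself fell while both coactivator genes rose. Srf went from 2491 ± 3.11 to 1664 ± 11.3 normalised counts (n = 2, SD), a log2 change of -0.58 ± 0.04 (adjusted p = 9.7e-10, edgeR). Mrtfa had a log2 change of 0.62 ± 0.04 (adjusted p = 3.2e-09, edgeR) and Mrtfb of 0.83 ± 0.05 (adjusted p = 3.2e-10, edgeR). Elk1, a ternary complex factor that joins DNA-bound SRF at growth factor response genes, had 0.67. Cfl1, which severs actin filaments, and Rhoa had -0.65 and -0.38. In this list 6 of 16 tested genes were higher and 5 lower (median 0.07). These are RNA levels, and the location or activity of the proteins was not measured.

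Genes around YAP and TEAD had 1 of 12 higher and 9 lower (median -0.29), beside 33.5% and 38.2% of all genes. Tead1 was the gene that rose (0.41). Ankrd1 and Ccn2, which are known targets of YAP, had log2 changes of -1.62 and -1.46, and Ajuba, a LIM protein of adhesions, -0.60. Yap1 had -0.10 ± 0.04 (adjusted p = 0.026, edgeR) and Wwtr1, which encodes TAZ, -0.27 ± 0.03 (adjusted p = 2.4e-06, edgeR). Of the 4 contractile genes with a TEAD motif in their window, Acta2 and Vcl rose and Tagln2 and Tpm1 fell. The part of the motif in these changes was not tested.

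TGF-β is the classical inducer of the myofibroblast. Of 10 genes of its pathway 3 were higher and 4 lower (median -0.03). Smad7, an inhibitor of the pathway, Tgfbr2 and Smad3 had log2 changes of 0.80, 0.34 and 0.14. Tgfb2, a ligand, and Smad2, which carries the signal, had -0.54 and -0.35. Matrix and adhesion markers of myofibroblasts had 2 of 13 higher (Loxl2 at 0.36 and Fn1, fibronectin, at 0.20) and 9 lower (median -0.20). Tnc, tenascin C, Lox, lysyl oxidase, and Thbs1, thrombospondin 1, had -0.88, -0.82 and -0.52. SRF targets of the immediate early type had 3 of 7 higher and 2 lower (median 0.18), with Fos at 1.01, Junb at 0.18 and Ier2 at -0.18, and with library totals as the scale none of them was lower.

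The label of a contractile myofibroblast set was checked against markers. The cells expressed Col1a1, Col1a2, Col3a1 and Vim abundantly, as fibroblasts do, and had no count of Thy1 and 10 counts or fewer of Lum per library. Of the 8 fibroblast markers tested, 1 was higher (Dcn, log2 change 1.08) and 7 were lower, beside 33.5% and 38.2% of all genes. Of the lower genes, Col1a1, Col1a2 and Col3a1 were already counted among the matrix and adhesion markers. The summed normalised counts of the list lay from 280767 to 283896 without genistein and from 234976 to 239152 with it. Acta2, Tagln and the tropomyosins were present, but Cnn1, Myl9, Myh11 and Fap were at or near 0 in both groups. Summed over their marker lists, skeletal muscle genes stayed under 3 normalised counts per library. Cardiac markers lay from 104 to 130 without genistein and from 28.3 to 30.01 with genistein, endothelial markers from 24.97 to 30.7 and from 85.3 to 97.2, epithelial markers from 452 to 462 and from 131 to 137, and haematopoietic markers from 67.8 to 84.9 and from 220 to 226. Most of each of these 4 sums came from 1 gene. Mean normalised counts without and with genistein were 109 and 18.5 for Tnnt2 (cardiac) and 18.0 and 71.7 for Kdr (endothelial). They were 404 and 121 for Krt8 (epithelial) and 74.8 and 212 for Cd68 (haematopoietic). Cdh5, Epcam, Ptprc and Spi1, from the last 3 of these lists, had 1 raw count or fewer in every library. The part of such cells in the results was not tested.

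The genes whose pattern over the 4 libraries was most like that of Acta2 were Pxdn, Pea15a and Akna. They were the nearest of 10267 genes by Euclidean distance between log2 values centred on each gene, at 0.012, 0.014 and 0.020. Pxdn, an extracellular matrix peroxidase, had normalised counts of 3923 and 3790 without genistein, against 5012 and 5103 with it. With 4 libraries in 2 groups this likeness amounts to a rise of the same size.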

How the data were processed

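Ribosomal RNA was removed from total RNA of MEF cells before paired-end sequencing (2 libraries per group). The authors used Trim Galore, STAR on mm10 with multiply aligned reads kept, and TEtranscripts with GENCODE M9 genes and repeats. The deposited values are raw counts, with no normalisation. Whether counting used strand is not given in the sources used here.

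From these counts, 1 unnamed entry (0.00208% to 0.00314% of a library) was left out. Genes and repeats together, 17358 entries after filterByExpr (16240 genes), were scaled by TMM and tested by quasi-likelihood F tests (edgeR 4.0.16, R 4.3.3), with Benjamini-Hochberg adjustment. The standard error is the size of the log2 fold change divided by the square root of F. Thresholds follow the study (adjusted p under 0.05, log2 fold change beyond 1, mean normalised count above 100). Replicate libraries were distinct, since their chi-square was 5.92 (untreated) and 13.3 (genistein) times its degrees of freedom. Reads carry no molecular identifiers, so the floor of 3 counts covers counting error only. Alternatives were DESeq2 1.42.0, other scalings, no filter, the replicate block, other thresholds and the omission of single libraries.

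The genes and lists were chosen with earlier results of these data known. Named were the 10 genes, 6 regulators, the 3 genes most like Acta2 and, per list, up to 3 higher and 3 lower genes with the largest change at an adjusted p under 0.05 and a mean count over 100. An item that this rule selects is not reported here. Other gene names (genes at or near 0, Mylk, Myl12a, Acta1, Smtn, Lmod1, cell markers and overlapping genes) were added after their values were seen. Coordinates come from GENCODE M21 on GRCm38, the assembly of mm10, counted from 1.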

Additional observations from a re-analysis of the deposited data

How the results depend on the processing

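The 4 higher and 3 lower contractile genes kept their direction and their side of the adjusted p-value threshold under every scaling, with no filter, with DESeq2, with the replicate block and without each library. Acta2 lay from 0.37 to 0.47 over these alternatives, Tagln from 0.72 to 0.81, Tagln2 from -0.996 to -0.90 and Vcl from 0.22 to 0.32. The count of 0 past all 3 thresholds became 4 higher and 3 lower with no fold change threshold, by construction. Actg2 reversed to 0.0848 without untreated replicate 1 and 0.0926 without genistein replicate 1, and Cnn1 to 0.451 without untreated replicate 1 and 0.0801 without genistein replicate 2, all short of the threshold. Over the omission of each library Actg2 ranged from -0.36 to 0.09 and Cnn1 from -0.57 to 0.45. Myl9, tested with no filter, had -1.20 (adjusted p = 0.26, edgeR), and -1.24 with DESeq2. Scaling moved the median of all genes from -0.03 to 0.04 with library totals, under which 6 focal adhesion genes were lower in place of 10 and no immediate early gene was lower in place of 2. The replicate block left 4 higher and 3 lower contractile genes, and 33 higher and 47 lower genes of the lists. The list totals were 38 higher and 37 lower with library totals, beside 37.5% and 34.1% of all genes. With TMM factors from genes alone they were 38 and 43, beside 36.1% and 35.8%. With no filter they were 33 and 53, beside 32% and 39.5%, and with DESeq2 28 and 47, beside 23% and 32.6%. The size of the excess of lower genes thus depended on the scaling, the filter and the method. The replicate numbers share no stated batch. Deviations from the group means of the libraries numbered 1 had a correlation of -0.03 between the groups, over all tested genes and repeats. With 2 libraries per group, those numbered 2 mirror these deviations and add no further comparison. At this depth, changes of Cnn1, Actg2 and Myl9 could not be resolved.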
